A study of Mus musculus with 4 samples.

Results

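The 8 genes described here encode transcription factors of the sympathoadrenal lineage and of neuroblastoma, the childhood tumour that arises from it. They are Hand2, Phox2a, Gata2, Gata3, Isl1, Tbx2, Insm1 and Mycn. The rule took them by symbol, with no threshold on a value, and all 8 were found among the 22287 genes of the mRNA table, each in 1 row. None was at 0 reads, and all 8 passed the minimum of 20 reads over both libraries that 11872 genes passed. N2a is an established mouse neuroblastoma cell line. One total RNA library came from untreated cells and 1 from cells that had been given manganese at 300 µM in the medium for 48 h. Neurons need this metal in traces and are harmed by an excess. Both groups were the same cell line, labelled as strain C57BL/6, with no engineered allele named, and the treatment text reads alike for both, so the titles alone tell them apart. Reads assigned to genes numbered 13972437 without and 14606961 with manganese.

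Sympathetic neurons and adrenal chromaffin cells descend from the neural crest. Their noradrenergic identity is set by factors that switch on one another and the enzymes of catecholamine synthesis, among them the homeodomain protein PHOX2A, the basic helix-loop-helix protein HAND2, and the zinc finger proteins GATA2 and GATA3. Many neuroblastomas keep this network switched on, and amplification of MYCN, an oncogene that drives growth and proliferation, marks tumours of high risk.

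Of the 6 genes with a RefSeq promoter entry (Hand2, Phox2a, Gata2, Gata3, Isl1 and Mycn), 2 are shown by sequence, because only these held any of the motifs searched. They belong to the most abundant of the 8 mRNAs and to the oncogene. Each run is the 250 bases before the RefSeq start site (GRCm38.p6), 5′ to 3′ on the strand of the gene. For Hand2 it is chr8:57320733-57320982 on the plus strand and for Mycn chr12:12941837-12942086 on the minus strand. Capitals mark motif matches, on either strand.
Hand2: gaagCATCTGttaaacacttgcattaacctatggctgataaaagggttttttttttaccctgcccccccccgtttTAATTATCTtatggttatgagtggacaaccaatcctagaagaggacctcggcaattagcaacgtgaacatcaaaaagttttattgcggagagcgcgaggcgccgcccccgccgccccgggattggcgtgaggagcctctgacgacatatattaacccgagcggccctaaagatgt
Mycn: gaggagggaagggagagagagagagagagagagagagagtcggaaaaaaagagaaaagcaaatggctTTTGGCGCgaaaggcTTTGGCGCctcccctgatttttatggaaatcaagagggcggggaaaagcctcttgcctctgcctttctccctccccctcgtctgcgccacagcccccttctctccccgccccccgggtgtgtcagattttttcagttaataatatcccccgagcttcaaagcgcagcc
The 6 motifs searched were TTTGGCGC for E2F, CACGTG for MYC with MAX, CATCTG for HAND2 with its partners, AGATAA for GATA factors, TAATTA for homeodomain factors and AGGTGTGA for T-box factors. The Mycn window held the E2F motif at 2 places, beginning 183 and 168 bases before the start. That motif was in 0.417% of 32851 windows of the same length, and 2 of them held it at 2 or more places. The Hand2 window held CATCTG 246 bases before the start, a motif in 14.4% of windows. It also held TAATTA, in 4.84% of windows, beginning 175 bases before the start, and AGATAA on the other strand, in 9.99%, beginning 172 bases before it, and these overlapped by 3 bases. CACGTG was in 6.02% and AGGTGTGA in 1.12% of windows. A match is a stretch of letters and does not show that a factor was bound.

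The 8 mRNAs spanned an 8.06-fold range of level in the untreated library and a 22.1-fold range in the Mn-treated one. Levels are compared between genes as the authors' FPKM, reads scaled by transcript length and by library size. Isl1, the lowest with manganese, differed more between libraries in FPKM than in reads (252 and 143), as given below. The wider range with manganese carries that difference. Brackets give 95% intervals that cover counting error only, and with 1 library per condition no value has a replicate check. Hand2 led in both libraries, at an FPKM of 47.6 [45.9 to 49.5] untreated and 50.9 [49.0 to 52.7] with manganese, a level above that of 95.1% and 95.5% of all genes. Phox2a came second in both, at 38.7 [36.7 to 40.7] and 34.5 [32.7 to 36.3]. Mycn was at 27.8 [26.4 to 29.2] and 22.1 [20.9 to 23.4], and Gata2 at 22.0 [20.9 to 23.0] and 24.4 [23.3 to 25.5]. These neighbours were apart without manganese, whereas with it their intervals overlapped and Gata2 was listed above Mycn.

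Below them Insm1 was at an FPKM of 11.7 [10.9 to 12.5] and 8.36 [7.72 to 9.03]. Tbx2 was at 9.52 [8.88 to 10.2] and 9.82 [9.18 to 10.5], so Insm1 stood above Tbx2 in the untreated library and below it in the Mn-treated one. The FPKM of Isl1 was 8.16 [7.18 to 9.23] and 2.30 [1.94 to 2.71]. Its interval overlapped that of Tbx2 in the untreated library and was the lowest of the 8 in the Mn-treated one. Gata3 was at 5.91 [5.19 to 6.71] and 3.92 [3.43 to 4.46], the lowest of the 8 untreated and the next to lowest with manganese.

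**Figure D1:**
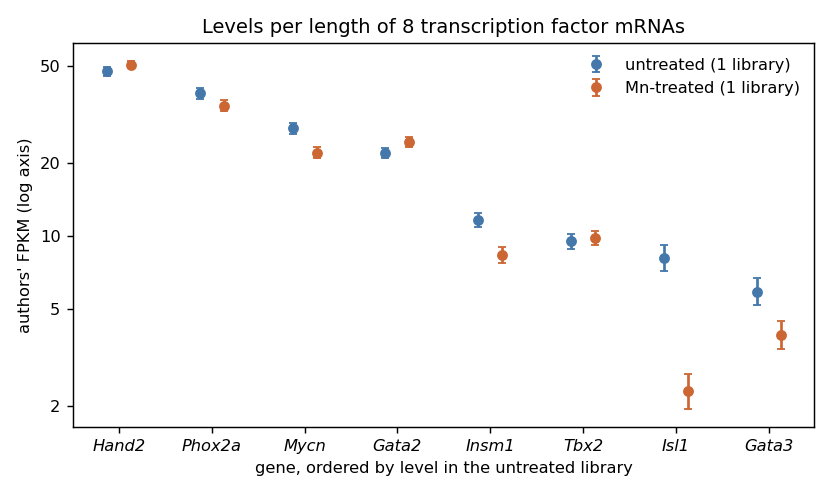
Level of each of the 8 mRNAs as the authors' FPKM (log axis), in the untreated library and the Mn-treated library, with bars for the 95% counting interval. Hand2 is highest in both, at 47.6 and 50.9, and Isl1 is at 8.16 untreated and 2.30 with manganese. Isl1 differs less by reads, which were 252 and 143.

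Between libraries, the comparison asks which of these mRNAs took a different share of the reads with manganese. Of the 8, Isl1 had a lower share by at least 1.5-fold in the Mn-treated library and none had a higher one by that fold. Of all 11872 measured genes, 5.97% were lower and 21.6% higher by that fold, and by 2-fold 1.7% were lower and 7.26% higher. Isl1 was short of 2-fold by column totals, but passed it with median-ratio scaling, at a log2 ratio of -1.05, and in the authors' deposited table, at -1.83. Scaling by the median ratio of genes, not by column totals, moves every log2 ratio by -0.17. It made the shares of all genes 10.8% lower and 13.9% higher, and put 2 of the 8 past 1.5-fold lower, Isl1 and Insm1. The log2 ratios below are reads plus 0.5 over column totals, Mn-treated over untreated, and are to be read against 0.18, the median of all measured genes. The median of the 8 was -0.16, and all 8 lay below 0.18, for 7 of them (all but Gata2) with the whole interval. In bulk RNA, fewer cells with a transcript and less of it per cell cannot be told apart.

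**Figure D2:**
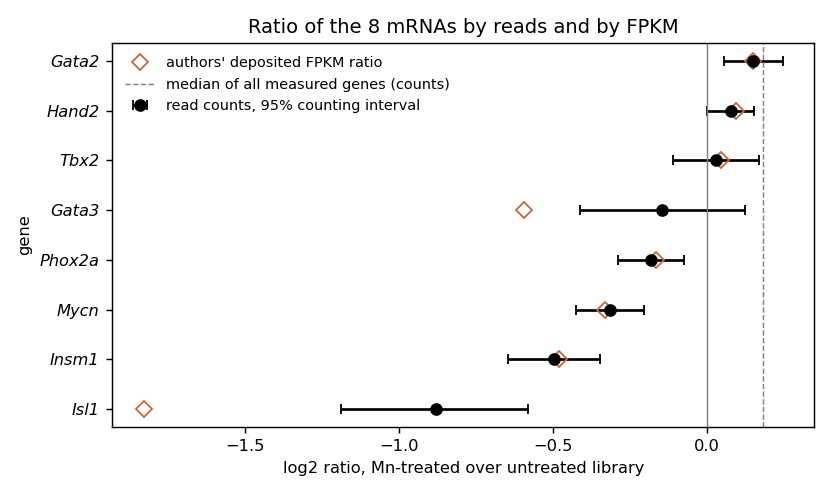
Log2 ratio of the Mn-treated over the untreated library for each of the 8 mRNAs. Black points and bars are read counts with 95% counting intervals, open diamonds the authors' deposited FPKM ratio, the dashed line the median of all measured genes at 0.18. Diamonds and points lie close together except for Isl1 and Gata3.

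Hand2, Gata2, Phox2a, Tbx2 and Gata3 had shares in the Mn-treated library of between 0.88 (Phox2a) and 1.11 (Gata2) of those in the untreated one. Hand2, which is needed for sympathetic neuron differentiation, had 2674 reads without and 2951 with manganese, or 191.4 and 202.0 CPM, reads of the gene for every 1000000 assigned reads. Its log2 ratio was 0.08 [0.00 to 0.15], and -0.09 with median-ratio scaling. Gata2, a zinc finger factor of early neuronal precursors and of blood, had 1660 and 1926 reads. Its log2 ratio of 0.15 [0.05 to 0.25] was the highest of the 8, and -0.02 with median-ratio scaling. Both were therefore on opposite sides of 0 under the 2 scalings.

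Phox2a, a homeodomain activator of the dopamine beta-hydroxylase gene, had 1486 and 1369 reads, at -0.18 [-0.29 to -0.08]. Its RefSeq gene model overlaps the end of Inppl1, a lipid phosphatase gene with 2089 and 1952 reads and a log2 ratio of -0.16, and the counts of both genes were fractional, so reads could be shared between them. Tbx2, a T-box repressor that promotes proliferation in neuroblastoma, had 824 and 879 reads, at 0.03 [-0.11 to 0.17], or -0.14 with median-ratio scaling. Gata3, which sympathetic neurons need to survive and to make noradrenaline, had 240 and 227 reads. Its log2 ratio of -0.14 [-0.41 to 0.12] could not be told from 0 by column totals, whereas with median-ratio scaling it was -0.31 [-0.58 to -0.05]. Counts of Gata2, Gata3, Phox2a and Tbx2 were fractional estimates, and those of Hand2, Isl1, Mycn and Insm1 were whole. RefSeq also places lncRNA genes over Gata2 and Gata3, and whether reads were counted by strand is not given in the labels, so reads of these genes could be shared as well.

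The 3 lowest ratios among the 8 belonged to Isl1, Insm1 and Mycn. Isl1, a LIM homeodomain factor of sympathetic and sensory neurons, had 252 reads untreated and 143 with manganese, 18.0 and 9.79 CPM. Its share was 0.54 [0.44 to 0.67] of that in the untreated library, a log2 ratio of -0.88 [-1.19 to -0.58], and 2.32% of measured genes had a lower one. Insm1, a zinc finger repressor that promotes neuroendocrine differentiation, had 864 and 640 reads, 61.8 and 43.8 CPM. Its log2 ratio was -0.50 [-0.65 to -0.35], below which 8.06% of measured genes lay. Mycn had 1478 and 1243 reads, 105.8 and 85.1 CPM, at -0.31 [-0.42 to -0.20], with 15.0% of measured genes below. The interval of Isl1 did not overlap that of Mycn and met that of Insm1.

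**Figure D3:**
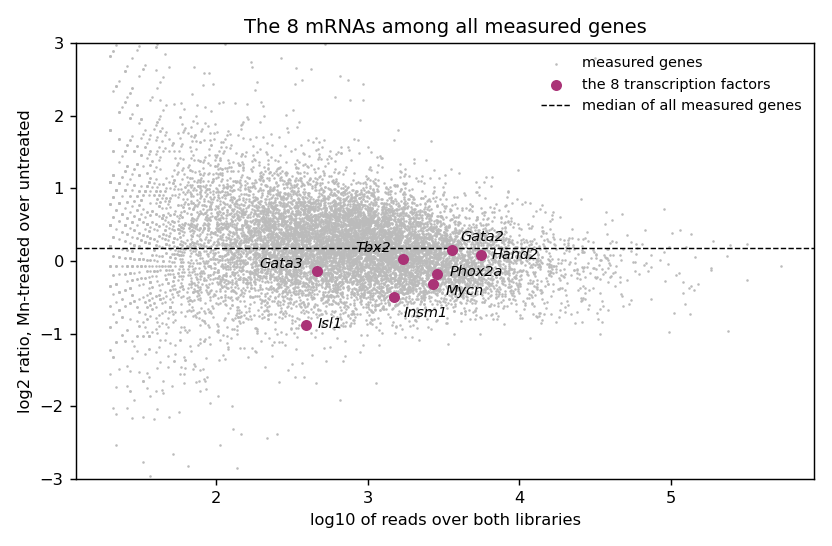
Log2 ratio (Mn-treated over untreated library) against log10 of the reads over both libraries for all measured genes (grey) and the 8 transcription factors (purple). The dashed line is the median of all measured genes, 0.18. All 8 lie below it, Isl1 farthest at -0.88, and 76 genes beyond -3 or 3 are not drawn.

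For Isl1 and Gata3, reads and FPKM gave different sizes of difference. In the authors' deposited table the log2 fold change is -1.83 for Isl1, against -0.88 from reads, and -0.59 for Gata3, against -0.14 from reads. For the other 6 genes the deposited values are between -0.48 and 0.15 and lie inside the counting intervals. FPKM divides reads by a transcript length, so the reads that make up 1 FPKM unit rise with the length used for a gene. For Isl1 they were 30.9 without and 62.2 with manganese, a ratio of 2.01. For Gata3 they were 40.6 and 57.8, a ratio of 1.42. Over 9563 measured genes with an FPKM of at least 1 in both libraries, the median ratio was 1.03 and the quartiles 1.02 and 1.07. A ratio as high as that of Isl1 was seen in 54 of them (0.565%), and one as high as that of Gata3 in 352 (3.68%). The ratios of the remaining 6 members were between 1.03 and 1.06. The table gives 1 row per gene, and whether the transcripts of Isl1 or Gata3 to which reads were assigned differed between libraries was not tested.

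**Figure D4:**
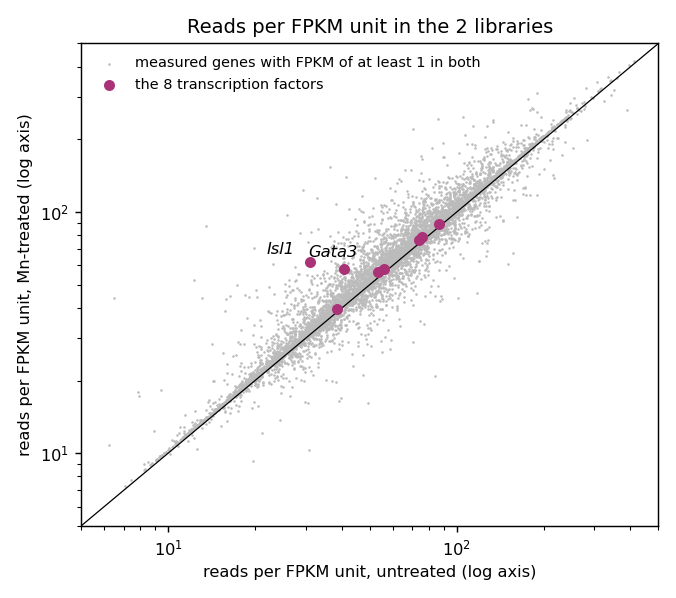
Reads per FPKM unit in the untreated (x) and the Mn-treated library (y), log axes, for measured genes with an FPKM of at least 1 in both (grey) and the 8 transcription factors (purple). The line marks equal values. Isl1 (30.9 and 62.2) and Gata3 (40.6 and 57.8) lie farther above that line than the other 6.

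Of 2253 circular RNAs, which reads over a back-splice junction reveal, 1 had a member as its host. It joins annotated exons of Isl1 on chromosome 13, minus strand, from 116301611 to 116308463 as deposited, with a spliced length of 946 bases. The submitters' processing notes name mm9, while this interval lies inside the span of Isl1 in GRCm38, so its build is uncertain. It had 4 junction reads without and 3 with manganese. The ratio of their shares of all junction reads was 0.93 [0.14 to 5.48], an interval that holds both 1 and the value of the Isl1 mRNA.

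Of 13 closest relatives of the 8 genes, 6 were measured, with 1 at least 1.5-fold higher (Isl2), 1 lower (Mycl, given with Mycn below) and a median log2 ratio of 0.21. Each call is 16.7% of the 6, against 21.6% of all genes higher and 5.97% lower. With median-ratio scaling 0 were higher, with Isl2 at 0.45, 2 were lower, Mycl and Tbx4, and the median was 0.04. Of all genes, 13.9% were higher and 10.8% lower with that scaling. The interval of Tbx4 was then -1.33 to 0.11, which holds 0. Isl2 had 56 and 90 reads, at 0.62 [0.12 to 1.13], above the interval of Isl1. Isl1 made up 86.5% of the FPKM of the ISL pair untreated and 53.4% with manganese, shares that carry the difference in reads per FPKM unit given above.

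Gata4, a factor best known from heart and endoderm, had 1498 and 1922 reads, at 0.30 [0.20 to 0.39]. It took 42.4% and 49.0% of the summed FPKM of Gata2, Gata3 and Gata4, next to 45.4% and 43.9% for Gata2 and 12.2% and 7.06% for Gata3. The shares of Gata3 also carry its difference in reads per FPKM unit given above. Gata1, Gata5, Gata6, Tbx5 and Insm2 were listed at 0 in both libraries, and Hand1 had 0 reads untreated and 1 with manganese. Tbx3 had 3 and 4 reads and Tbx4 had 40 and 31, at -0.43 [-1.16 to 0.28]. Yap1 and Klf13, genes expressed in many tissues, were also listed at 0. Whether a listed 0 is a true count or a failed estimate was not tested. If a listed 0 is a true count, it allows up to 0.215 and 0.205 CPM in the 2 libraries.

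Other transcription factors of the sympathetic and adrenergic neuroblastoma programme lay mostly above the median of all genes. Of 24 such genes, 14 were measured, 11 of them above 0.18. Of the 14, 5 were at least 1.5-fold higher (35.7%, against 21.6% of all genes) and 0 lower (against 5.97%). Median-ratio scaling made that 3 and 1 (Lmo1), against 13.9% and 10.8% of all genes. The list had a median log2 ratio of 0.39, against 0.18 for all genes. Meis1 had 162 and 293 reads, at 0.79 [0.51 to 1.08], and Pbx3 had 149 and 265, at 0.76 [0.47 to 1.07]. Both encode homeodomain cofactors of the TALE class. In the authors' deposited table Pbx3 is at 0.50, within 1.5-fold. At the other end, Lmo1, a LIM-only protein linked to neuroblastoma risk, had 4179 and 3183 reads, at -0.46 [-0.52 to -0.39], and Ebf3 was at -0.09 [-0.35 to 0.17]. Tfap2b, an AP-2 family factor, had 6 and 15 reads, at 1.19 [-0.19 to 2.91].

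A list of noradrenergic genes, mostly of enzymes, transporters and granule proteins, included known targets of these factors. Ret, Alk, Prph, Gap43 and Stmn2 were also on it and belong to none of these classes. Of 21 genes, 15 were measured, with a median of 0.49. Under both scalings 6 of the 15 were at least 1.5-fold higher and 0 lower. That is 40% higher, against 21.6% of all genes, or 13.9% with median-ratio scaling. Alk at 1.04 [0.75 to 1.34] and Gap43 at 1.08 [0.87 to 1.30] were among the 6. By the authors' FPKM ratio 5 were higher, against 21.7% of all genes. With whole counts only 4 were higher, against 20.9%. The list members not measured were Ddc (4 and 6 reads), Maoa (0 and 1), and Pnmt, Npy, Gal and Slc6a2 (listed at 0 in both). Th, the rate-limiting enzyme of catecholamine synthesis, had 88 and 173 reads, at 0.91 [0.53 to 1.30]. Dbh, which makes noradrenaline and which PHOX2A activates, had 250 and 247 reads, at -0.08 [-0.34 to 0.18]. The vesicle loader Slc18a2 had 26 and 74 reads, at 1.43 [0.78 to 2.15], and the granule protein Scg2 was at 1.23 [1.04 to 1.42]. Stmn2, a microtubule regulator of growth cones, was at 0.02 [-0.10 to 0.14]. Counts of 4 of the 15 were fractional.

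**Figure D5:**
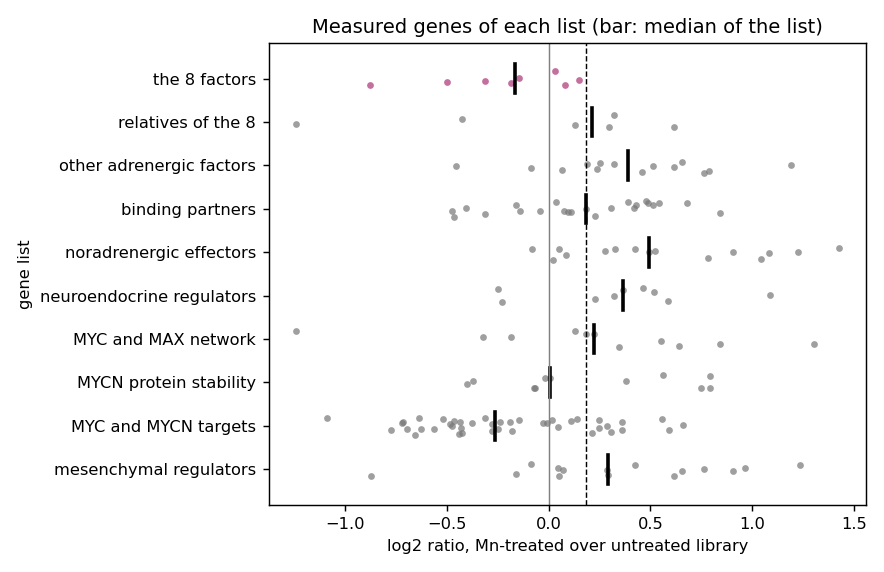
Log2 ratio (Mn-treated over untreated library) of the measured genes of each list, 1 point per gene, with a bar at the median of the list. The dashed line is the median of all measured genes, 0.18. The 8 factors have a median of -0.16, MYC and MYCN targets of -0.26 and noradrenergic effectors of 0.49.

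Proteins that bind the 8 factors had a median like that of all genes. Of 26 listed partners, 23 were measured, with a median of 0.18. Of the 23, 2 were at least 1.5-fold higher (8.7%, against 21.6% of all genes) and 0 lower (against 5.97%). Median-ratio scaling made the counts 1 and 2, against 13.9% and 10.8% of all genes. Ldb1, which bridges LIM proteins such as ISL1 and LMO1 to GATA factors, had 2627 and 2815 reads, at 0.04 [-0.04 to 0.11]. Lmo4 was at 0.31 [0.10 to 0.51]. Of the corepressors that INSM1 recruits, the histone demethylase Kdm1a had 2441 and 3642 reads, at 0.51 [0.44 to 0.59], and Rcor1 had 165 and 310, at 0.84 [0.57 to 1.13]. The other Rcor genes went both ways. Rcor2 had 3014 and 2537 reads, at -0.31 [-0.39 to -0.24], and Rcor3 had 413 and 629, at 0.54 [0.36 to 0.73]. The dominant negative helix-loop-helix protein Id4 was at 0.68 [0.09 to 1.31], or 0.51 and within 1.5-fold with median-ratio scaling. The lowest were the LDB1-binding protein gene Ssbp4 at -0.47 [-0.64 to -0.31] and Hmg20b, of the complex of KDM1A, at -0.47 [-0.62 to -0.31].

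Of 23 neuroendocrine and neuronal differentiation regulators, 9 were measured and 13 were at 0 in both libraries after rounding. The median of the 9 was 0.36. Under both scalings 1 was at least 1.5-fold higher (11.1%, against 21.6% of all genes, or 13.9% with median-ratio scaling) and 0 lower. It was St18, a zinc finger factor related to Myt1, with 42 and 94 reads, at 1.09 [0.56 to 1.66]. Myt1 was at 0.52 [0.36 to 0.67]. Hes6 was at -0.25 [-0.43 to -0.07] and Pou4f1 at -0.23 [-0.59 to 0.13]. In the authors' deposited table Pou4f1 is at -0.78 and Myt1 at 1.01, both past 1.5-fold. Rest, which represses neuronal genes outside neurons, had 98 and 120 reads, at 0.23 [-0.17 to 0.63].

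Within the MYC family, Mycn shared the read pool with Myc. Myc had 1782 and 2035 reads, at 0.13 [0.04 to 0.22], or an FPKM of 32.4 and 35.8. Mycl had 125 and 55 reads, at -1.24 [-1.73 to -0.78], on an FPKM of 2.30 and 1.39. Mycn made up 44.5% of the summed FPKM of the 3 genes without and 37.3% with manganese, and Myc 51.8% and 60.4%. Of the 12 genes of the MYC and MAX network, 11 were measured, with a median of 0.22. Of the 11, 3 were at least 1.5-fold higher (27.3%, against 21.6% of all genes) and 1 lower (9.09%, against 5.97%). Median-ratio scaling made the counts 2 and 1, against 13.9% and 10.8% of all genes. Max, the partner that MYC proteins need to bind DNA, had 443 and 526 reads, at 0.18 [0.00 to 0.37], against 0.95 in the authors' deposited table. The MAX partners Mxd1, an antagonist of MYC, and Mga were at 1.30 [0.79 to 1.86] and 0.84 [0.66 to 1.03], and Mxd3 was at -0.32 [-0.50 to -0.14].

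Genes whose products set the stability of MYCN protein had a median of 0.01 over 11 measured, or -0.16 with median-ratio scaling. Of them 3 were at least 1.5-fold higher (27.3%, near the 21.6% of all genes) and 0 lower (against 5.97%). With median-ratio scaling 2 were higher and 0 lower, against 13.9% and 10.8% of all genes. The ubiquitin ligase genes Fbxw7 and Huwe1 were both at 0.79, with intervals of 0.40 to 1.20 and 0.73 to 0.86. The kinase Cdk1 was at -0.37 [-0.45 to -0.30].

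Widely used MYC and MYCN target genes of ribosome making and of nucleotide and polyamine synthesis were the list with the lowest median. Of 43 genes 42 were measured, with a median of -0.26. Of the 42, 8 were at least 1.5-fold lower (19.0%, against 5.97% of all genes) and 2 higher (4.76%, against 21.6%). Of the 42, 32 lay below 0.18. With median-ratio scaling 17 were lower and 0 higher, with Tfrc and Dkc1 at 0.49 and 0.42. Of all genes, 10.8% were lower and 13.9% higher with that scaling. Cad, which starts pyrimidine synthesis, had 8206 and 5010 reads, at -0.78 [-0.83 to -0.73], and Rcc1, the exchange factor of Ran, had 2536 and 1611, at -0.72 [-0.81 to -0.63]. Tfrc, the transferrin receptor, was at 0.66 [0.43 to 0.90] and Dkc1 at 0.59 [0.23 to 0.97]. Counts of 13 of the 42 were fractional, those of Tfrc and Dkc1 among them. Whether these differences are tied to that of Mycn was not tested.

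Markers of other cell types were looked up beside the 8 genes. Of 14 neural crest and Schwann cell markers 5 were measured, and Sox10, Foxd3, S100b, Ednrb, Tfap2a and Fabp7 were listed at 0 in both libraries. The 14 summed to 495.0 and 520.0 CPM, mostly from Pmp22 and from Ngfr, a neurotrophin receptor gene, which was at -0.33 [-0.40 to -0.26]. Pmp22 was at 0.35, Mbp at 0.64 (0.48 with median-ratio scaling) and Erbb3, with 126 and 290 reads, at 1.14 [0.83 to 1.45]. The 8 adrenal chromaffin markers summed to 173.2 and 242.0 CPM, with Chga at 0.52 and Chgb at 0.49, while Pnmt, which makes adrenaline, and Penk were listed at 0. Chga alone held 116.9 and 167.8 CPM. Most of these markers (Chga, Chgb, Dbh, Th, Slc18a1 and Pnmt) were also in the noradrenergic list above, so their values are the same ones. The 7 adrenal cortex markers summed to 1.15 and 0.96, and the 11 fibroblast and endothelial markers to 12.3 and 15.2. Among the latter Col3a1 had 0 and 18 reads and Col1a2 0 and 5, while Col1a1 had 42 and 33. The part of other cell types in the ratios of the 8 genes was not tested.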

How the data were processed

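Total RNA depleted of ribosomal RNA was sequenced on an Illumina instrument, per the labels' protocols. The submitters' processing notes name fastp 0.18.0, Bowtie2, StringTie and the build mm9, with no role or order. The counting program and annotation release are, in the sources used here, not given. Per gene, the authors deposited estimated counts, not whole for 13.3% of genes, FPKM values, and log2 fold changes that are ratios of FPKM. The authors deposited whole junction read counts for circular RNAs. The lncRNA and miRNA tables were not used.

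Estimated counts were rounded. The log2 ratio is (reads + 0.5) over the column total, Mn-treated over untreated. Intervals of ratios are exact conditional binomial (Clopper-Pearson) and those of levels exact Poisson, at 95%. Reads copied by PCR, with no molecular identifiers, are not independent molecules. Intervals and floors (3 reads for a count of 0) therefore cover counting error only. No test across samples was made, as 1 library per group gives no spread. Each level interval is the Poisson interval of the reads, scaled to FPKM. The ratio step was tested on simulated data.

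The 8 genes and 13 other lists were chosen with earlier results of these data known. Named genes are the 8, their closest relatives, 13 genes named beforehand, and the 2 highest and 2 lowest members with at least 100 reads of each list with at least 5 measured members. Yap1, Klf13, Inppl1, Ddc, Maoa, Rcor2, Rcor3, Ret, Alk, Prph, Gap43, Fosl2, Tead1, Aebp1, Sox9 and the collagen genes were chosen after their values were seen. So were the list members named only because they were at 0. Single values of 3 genes that this rule takes are not reported here. Promoter windows are from RefSeq (GRCm38.p6), matched by symbol for 6 of 8 genes, with bases after the start left out. Alternatives were other scaling, pseudocounts, rounding, read minimums and FPKM. Python 3.11.15, numpy, scipy and pandas were used.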

Additional observations from a re-analysis of the deposited data

How the results depend on the processing

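With 1 library per condition, no ratio has a replicate check, and counting depth limits Isl1 and Gata3 most, with 252 and 240 reads in the untreated library. No paired analysis was possible because each condition had 1 library. Median-ratio scaling gave log2 ratios of -0.35 for Phox2a, -0.48 for Mycn, -0.67 for Insm1 and -0.14 for Tbx2. It turned the sign of Hand2, at -0.090, Gata2, at -0.018, and the MYCN stability list, at -0.16. It put 2 of the 8 genes past 1.5-fold lower and their median at -0.33. With the authors' FPKM ratio 2 of the 8 were past 1.5-fold lower, Isl1 at -1.83 and Gata3 at -0.59. With whole counts only, an alternative chosen after seeing the data, the median of the 8 was -0.41 over the 4 genes left, and the MYCN stability list was at -0.0072. Pseudocounts of 0.1, 1 and 5, unrounded counts, no filter and a minimum of 100 reads left the 8 ratios inside their counting intervals where they were recomputed, and left the count past 1.5-fold at 1 lower and 0 higher. Counts of list members past 1.5-fold moved, among other changes, as follows. With FPKM ratios 3 adrenergic factors (5 by reads), 4 binding partners (2), 3 neuroendocrine (1) and 3 mesenchymal regulators (6) were higher. By the same ratios 5 noradrenergic effectors (6) and 4 MYC network genes (3) were higher, and 1 neuroendocrine regulator (0) and 7 MYC targets (8) were lower. Of all genes, 21.7% were higher and 6.93% lower by FPKM. With no filter 9 adrenergic factors, 2 relatives (1) and 13 mesenchymal regulators were higher, and 1 neuroendocrine and 2 mesenchymal regulators (1) were lower. Of all genes, 27.4% were then higher and 9.83% lower. The genes that joined these counts without the filter had 0 reads in 1 library and 1 or 2 in the other. With median-ratio scaling 0 relatives were higher and 2 lower. A pseudocount of 0.1 made 2 neuroendocrine regulators higher, and one of 5 left 0 relatives and 1 MYC target (2) higher, as whole counts left 0 MYC targets. By CPM, which ignores length, Gata2 ranked 2, Phox2a 3 and, in the untreated library, Mycn 4 among the 8.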

Other observations

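Transcription regulators of the mesenchymal state of neuroblastoma, which some tumour cells take on in place of the adrenergic one, were looked up as a list of 27 genes. Of these, 15 were measured, with a median log2 ratio of 0.29. In the Mn-treated library 6 were at least 1.5-fold higher (40%, against 21.6% of all genes) and 1 lower (6.67%, against 5.97%). Median-ratio scaling made the counts 4 and 1, against 13.9% and 10.8% of all genes. The glucocorticoid receptor gene Nr3c1 had 79 and 195 reads, at 1.23 [0.86 to 1.64] from reads but -0.50 in the authors' deposited table, where its reads per FPKM unit differed 3.50-fold between libraries. Smad3, which carries TGF-beta signals, had 101 and 198 reads, at 0.90 [0.55 to 1.27], against 0.27 in the authors' deposited table. Wwtr1, a coactivator controlled by the Hippo pathway, had 632 and 361 reads, at -0.87 [-1.06 to -0.68], and Id1 was at -0.16 [-0.23 to -0.10]. Prrx1, Fosl1 and Snai2, also on the list, had 0 reads untreated and 1 each with manganese, and Twist1 had 0 and 2. Other members had many more, such as Aebp1 with 941 and 1510, Fosl2 with 665 and 1179, Tead1 with 591 and 974, and Sox9 with 285 and 313. Of the 15 measured, 9 lay above the median of all genes and 6 below it.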
